A study of Mus musculus with 2 samples.

Results

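Transcript levels of 10 genes of the BCL2 family, which sets whether a cell survives or dies by apoptosis, were compared between shLuc and shKdm5b ES cells after 72 h without LIF. The genes were chosen by name and comprise 10 of the 21935 gene symbols in the RNA-Seq data. They are the survival genes *Bcl2*, *Bcl2l1* (BCL-XL), *Mcl1* and *Bcl2l2* (BCL-W), the effector gene *Bak1*, and the BH3-only genes *Bcl2l11* (BIM), *Bad*, *Bid*, *Bik* and *Bmf*. All 10 had reads in both libraries, and 8 had an RPKM (reads per kilobase of transcript, scaled to the size of the library) above 1 in at least 1 library. The R1 line of mouse embryonic stem cells was kept on irradiated fibroblast feeders with LIF, the cytokine that sustains self-renewal. Both groups had been infected with a lentivirus that carries a short hairpin RNA (shRNA) and puromycin resistance, and had been selected with puromycin. The shRNA of shKdm5b ES cells targets *Kdm5b*, which encodes a demethylase of histone H3 lysine 4, and that of shLuc ES cells, the control, targets luciferase. They were then cultured in ES cell medium that lacked LIF, for which the paper names either gelatin coated or low attachment dishes. Each condition has 1 library of polyadenylated RNA, so the differences have no replicate check and no p-value is given, and an effect of the culture or library cannot be told apart from that of the shRNA. A fibroblast feeder, the culture without LIF and puromycin selection are common to both.

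In the mitochondrial pathway of apoptosis, BAX and BAK open the outer mitochondrial membrane and release cytochrome c, which activates caspases. The survival proteins hold BAX and BAK in check, and BH3-only proteins bind the survival proteins or act on the effectors themselves. In ES cells, which readily undergo apoptosis when damaged, MCL1 and BCL-XL are known survival factors. Many family members are also controlled after transcription, MCL1 by rapid turnover, BID by cleavage and BAD by phosphorylation, so RNA levels describe one layer of the system.

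The promoters of the gene with the largest difference, *Bmf*, of the survival gene with the largest difference, *Bcl2l1*, and of the most abundant member, *Mcl1*, are shown because KDM5B acts on promoter chromatin and H3K4 methylation marks promoters rich in CpG. The 250 bases before the RefSeq start nearest to the transcript are given for GRCm38.p6, 5′ to 3′ on the strand of the gene, with CpG dinucleotides in capitals.
Bmf, chr2:118549687-118549936, minus strand: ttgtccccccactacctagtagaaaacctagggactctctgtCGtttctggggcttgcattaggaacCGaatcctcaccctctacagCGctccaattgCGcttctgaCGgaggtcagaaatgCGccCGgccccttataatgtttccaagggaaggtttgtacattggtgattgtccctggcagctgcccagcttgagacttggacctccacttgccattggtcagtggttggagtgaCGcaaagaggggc
Bcl2l1, chr2:152831729-152831978, minus strand: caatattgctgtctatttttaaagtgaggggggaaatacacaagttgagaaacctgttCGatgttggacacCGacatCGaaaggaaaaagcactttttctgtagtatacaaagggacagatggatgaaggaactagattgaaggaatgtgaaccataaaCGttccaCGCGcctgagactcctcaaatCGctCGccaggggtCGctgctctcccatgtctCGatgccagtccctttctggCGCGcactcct
Mcl1, chr3:95658471-95658720, plus strand: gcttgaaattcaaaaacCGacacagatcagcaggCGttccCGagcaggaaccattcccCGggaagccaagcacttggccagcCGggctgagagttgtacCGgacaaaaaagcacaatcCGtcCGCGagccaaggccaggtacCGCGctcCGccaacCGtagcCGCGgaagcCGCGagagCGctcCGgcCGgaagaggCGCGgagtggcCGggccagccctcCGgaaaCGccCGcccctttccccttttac
These windows hold 8 CpG for *Bmf*, 12 for *Bcl2l1* and 26 for *Mcl1*, and the median over 32851 RefSeq promoter windows of the same length was 6. The other matched members had 36 (*Bcl2*), 24 (*Bcl2l11*), 21 (*Bad*), 18 (*Bid*), 9 (*Bcl2l2*) and 8 (*Bak1*), and *Bik* was not matched. Among the 9 windows, the letters GTAAACA, a core motif bound by FOXO factors, occurred on either strand in that of *Bcl2l11*, and 3.17% of all windows held them. The letters GGGCGG, the GC box, occurred in either orientation in the windows of *Bcl2*, *Mcl1*, *Bcl2l2*, *Bcl2l11*, *Bad* and *Bid*, and in 32.7% of all windows. The *Bmf* and *Bcl2l1* windows held neither. These 2 genes have 3 RefSeq starts each, and only the window of the nearest start was examined. The start used for *Bcl2* lies 1111 bases, and that of *Bak1* 382 bases, from the start of the matched transcript.

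The aligned reads numbered 78172698 in shLuc ES cells and 72702698 in shKdm5b ES cells. Distinct positions (chromosome, start and strand) numbered 32.9% and 20.1% of these reads, so the shKdm5b library had fewer of them at a similar depth, and the intervals given here cover counting error only. The targeted gene *Kdm5b* had an RPKM of 104 in shLuc ES cells and 3.01 in shKdm5b ES cells, a log2 ratio of -5.07 (95% counting interval -5.20 to -5.04). All 10 listed ES cell markers had an RPKM above 1, with summed RPKM of 3089 and 3161. Single ES cell markers differed in both directions, with *Pou5f1* at 619 and 182 RPKM (log2 ratio -1.76), *Esrrb* at 80.5 and 41.2 RPKM and *Dppa5a* at 1096 and 1651 RPKM. In the same order, 10 fibroblast markers summed to 7.45 and 7.59, of which *Thy1* made up 4.08 and 4.59. Of the 10, 4 had a log2 ratio below 0. They were *Acta2* (RPKM 1.91 and 1.18, log2 ratio -0.65), *Col1a1* (174 and 135 reads), *Postn* (3 and 0 reads) and *S100a4* (6 and 0 reads). *Dcn* (17 and 43 reads), *Col1a2* (57 and 75 reads) and *Pdgfrb* (RPKM 0.501 and 0.819) were among those above 0. Endoderm markers summed to 4.84 and 1.17, with *Afp* at 0 reads in shKdm5b ES cells. Neural markers summed to 41.6 and 21.6 (*Tubb3* alone 36.4 and 14.0, with *Nes* at 1.78 and 3.24, *Sox1* at 1.41 and 2.12 and *Pax6* at 2.01 and 2.18). Mesoderm markers summed to 2.90 and 4.66, of which *Eomes* made up 2.45 and 4.05. *T* had 6 and 47 reads, while *Mixl1* (50 and 35), *Kdr* (39 and 25) and *Mesp1* (4 and 2) had fewer reads in shKdm5b ES cells. The 4 blood markers summed to 3.89 and 22.4, of which *Cd68* made up 3.73 and 22.4. *Hbb-b1* was at 0 in both libraries, *Ptprc* had 0 and 6 reads, and *Gata1* had 22 and 6 reads. These sums and the share of distinct positions differed between the libraries, their part in the results below was not tested, and fewer cells of a type and less RNA per cell cannot be told apart in such samples.

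Each log2 ratio compares RPKM + 0.1 in shKdm5b with RPKM + 0.1 in shLuc ES cells, so ratios of genes with few reads come out too close to 0. Genes past a fold change of 1.5 with an RPKM above 1 in at least 1 library were counted as differing, the thresholds of the study. Of 11804 genes with an RPKM above 1, 16.3% were higher and 32.0% lower in shKdm5b ES cells by these thresholds, and 48.3% differed in all. The median log2 ratio of these genes was -0.21. Of the 8 BCL2 family members with an RPKM above 1, *Bmf*, *Bcl2l1*, *Bad* and *Bcl2l11* were lower past the thresholds, 4 stayed within them, and 0 were higher. The median log2 ratio of the 8 members was -0.60, and 9 of all 10 members had a ratio below 0. Ratios below 0 were common, as 58.0% of the 11804 genes lay below *Bid* (-0.05) and 63.0% below *Mcl1* (0.06). The counting intervals of *Bcl2* and *Bid* included 0. The 4 members past the thresholds included 1 that protects cells (*Bcl2l1*) and 3 that promote death. With the libraries scaled by the median ratio of the genes with an RPKM above 1 in both, which moves ratios up by 0.17 and less at low RPKM, 3 members were lower and 0 higher, where 25.3% of genes were lower, 22.1% higher and 47.4% differed in all. *Bcl2l11* was the member that no longer passed. At a fold change above 2, *Bmf*, *Bcl2l1* and *Bad* were lower, where 16.5% of genes were lower and 6.27% higher. The exact test of edgeR, the tool named in the study's methods, with a false discovery rate below 0.001 beside the thresholds, needs an assumed dispersion without replicates and compares these libraries, not the conditions. At a dispersion of 0, that is counting error alone, 4 members passed, where 47.0% of genes did. At dispersions of 0.04 and 0.16, 0 members did, where 2.30% and 0.00847% of genes passed.

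**Figure D1:**
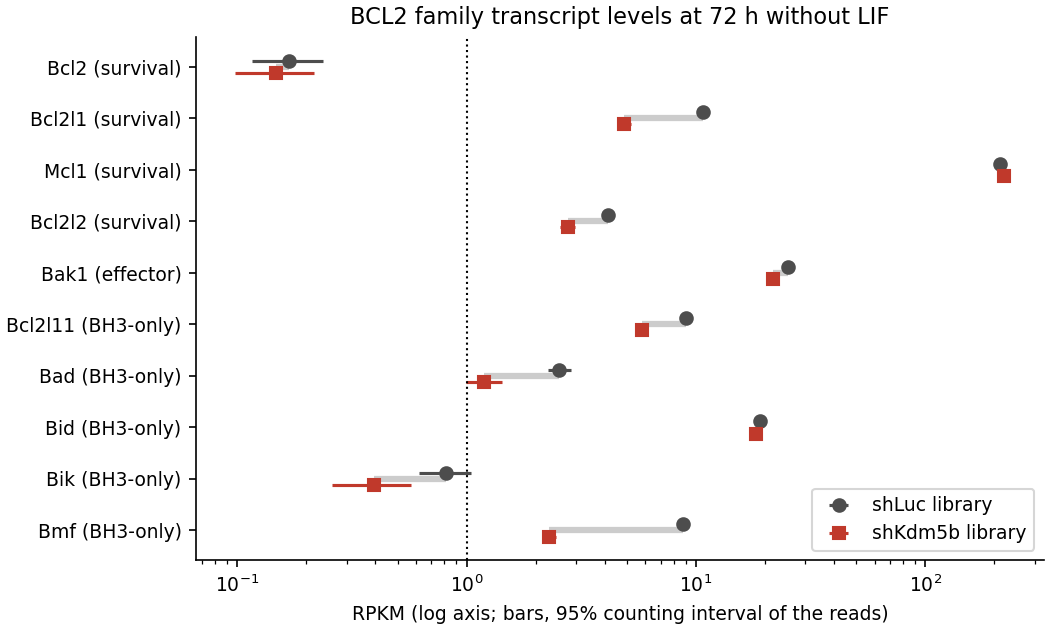
RPKM (log axis) of the 10 BCL2 family genes in shLuc (circles) and shKdm5b (squares) ES cells, with 95% counting intervals as bars and a dotted line at an RPKM of 1. *Mcl1* lies above 200 in both libraries, *Bcl2* and *Bik* lie below 1, and the widest gap between the libraries is that of *Bmf*.

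*Mcl1* was by far the most abundant survival transcript. It lies on chromosome 3 from 95658788 to 95663176 (GRCm38) and encodes a short-lived protein that restrains BAK. Its RPKM was 212 in shLuc ES cells (57807 reads) and 221 in shKdm5b ES cells (56034 reads), above 98.7% and 98.3% of the genes with an RPKM above 1. The log2 ratio was 0.06 (0.04 to 0.08), the one ratio above 0 among the 10 members, and the libraries were nearly level for this gene.

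*Bcl2l1*, on chromosome 2 from 152780668 to 152831728, encodes BCL-XL, which holds both BAX and BH3-only proteins. Its RPKM was 10.7 in shLuc ES cells (1988 reads) and 4.85 in shKdm5b ES cells (836 reads), or 45.2% of the control. The log2 ratio was -1.13 (-1.26 to -1.03) and 12.9% of the genes compared had a lower one. *Bcl2l2*, which encodes BCL-W and lies on chromosome 14 from 54883377 to 54888234, was at 4.12 RPKM (1115 reads) and 2.76 RPKM (694 reads), with 594 exon bases shared with the predicted gene *Gm20521* on the same strand. Its log2 ratio of -0.56 (-0.72 to -0.44) lay just short of the 1.5-fold threshold, as that of *Bcl2l11* at -0.63 lay just past it.

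*Bcl2*, the founding member of the family, on chromosome 1 from 106538178 to 106714274, was barely detected. The entry used, the shorter of its 2 RefSeq entries, had 33 reads in shLuc ES cells and 27 in shKdm5b ES cells, an RPKM of 0.168 and 0.148 (log2 ratio -0.11, -0.97 to 0.59). The longer entry had 58 and 75 reads, an RPKM of 0.103 and 0.143 (log2 ratio 0.26, interval of the reads -0.04 to 0.996). The entries differ in sign and both intervals include 0, so a difference in *Bcl2* was not detectable at this depth.

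The effector gene *Bak1*, on chromosome 17 from 27019810 to 27029009, was measured at 25.2 RPKM in shLuc ES cells (3946 reads) and 21.7 RPKM in shKdm5b ES cells (3162 reads). Its log2 ratio of -0.21 (-0.28 to -0.15) was level with the median of all genes. Part of its exon sequence is shared with *Ggnbp1* on the other strand, and since the library preparation does not mark strand, reads there cannot be assigned to one gene.

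*Bmf* differed most. It lies on chromosome 2 from 118528757 to 118549687 and encodes a BH3-only protein that is held at the cytoskeleton through dynein light chain 2 and released when cells lose attachment. Its RPKM was 8.75 in shLuc ES cells (3168 reads) and 2.28 in shKdm5b ES cells (767 reads), or 26.0% of the control. The log2 ratio was -1.90 (-2.06 to -1.83), and 2.29% of the genes compared had a lower one.

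*Bad*, on chromosome 19 from 6941861 to 6951899, encodes a BH3-only protein that growth factor signalling switches off by phosphorylation. It had an RPKM of 2.54 (288 reads) in shLuc ES cells and 1.19 (126 reads) in shKdm5b ES cells, a log2 ratio of -1.03 (-1.40 to -0.78). The few reads leave a wide interval, and 524 exon bases are shared with *Gpr137* on the opposite strand, whose reads could not be separated.

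*Bcl2l11*, on chromosome 2 from 128126038 to 128162547, encodes BIM, a BH3-only protein that binds every survival member of the family and that FOXO factors induce. Its RPKM was 9.04 (3439 reads) in shLuc ES cells and 5.81 (2056 reads) in shKdm5b ES cells, a log2 ratio of -0.63 (-0.72 to -0.56). The 3 entries of the gene had log2 ratios of -0.62, -0.63 and -0.64. They share most of their bases and so are no independent measurements. The longest entry exceeds the next by 168 bases and that one the shortest by 90 bases, and the reads on these alternative segments were taken by subtraction, which assumes that each shorter entry is contained in the longer. The 168-base segment had 67 reads in shLuc ES cells and 52 in shKdm5b ES cells, an RPKM of 5.10 and 4.26 (log2 ratio of the reads -0.26, -0.81 to 0.28). The 90-base segment had 65 and 56 reads, an RPKM of 9.24 and 8.56 (log2 ratio of the reads -0.11, -0.65 to 0.43). Both intervals include the ratio of the whole gene as well as 0, so a difference in BIM isoform use was not detectable at this depth.

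*Bid* and *Bik* complete the BH3-only group. *Bid*, on chromosome 6 from 120891930 to 120916853, links death receptors to mitochondria once caspase 8 cleaves its protein. It had an RPKM of 19.0 (2802 reads) and 18.3 (2520 reads), a log2 ratio of -0.05 (-0.13 to 0.03), so no difference was detectable beyond counting error. It shares 628 exon bases with *Bcl2l13* on the other strand. *Bik*, on chromosome 15 from 83526862 to 83544634, had 60 reads in shLuc ES cells and 27 in shKdm5b ES cells, an RPKM of 0.814 and 0.394, below the RPKM threshold in both (log2 ratio -0.89, interval of the reads -1.76 to -0.37).

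**Figure D2:**
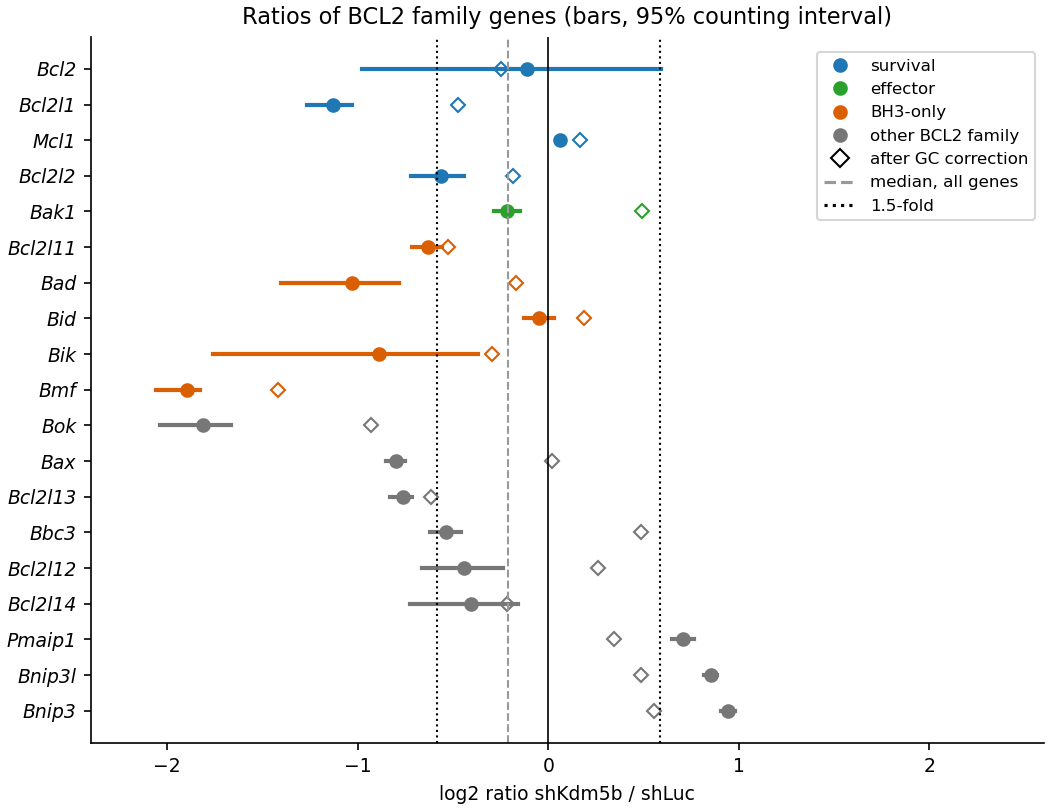
Log2 ratio of shKdm5b to shLuc (x axis) for the 10 BCL2 family members and 9 further family genes with an RPKM above 1, with 95% counting intervals as bars, dotted lines at 1.5-fold and a dashed line at the median of all genes (-0.21). Open diamonds give the ratio after the GC correction, at which *Bmf* (-1.42) is the member that stays past 1.5-fold.

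Within shLuc ES cells the order of levels ran *Mcl1*, *Bak1*, *Bid*, *Bcl2l1*, *Bcl2l11*, *Bmf*, *Bcl2l2*, *Bad*, *Bik* and *Bcl2*. *Bcl2l11* and *Bmf* did not differ there beyond counting error (log2 ratio of the RPKM 0.05, -0.02 to 0.12), and each other neighbouring pair did. Within shKdm5b ES cells *Bmf* stood seventh, below *Bcl2l2*, and *Bcl2l11* stood above *Bcl2l1*. The RPKM of *Bcl2l11* was 0.842 of that of *Bcl2l1* in shLuc ES cells and 1.20 of it in shKdm5b ES cells, a change in the ratio of the reads of 0.51 on the log2 scale (exact conditional 95% counting interval 0.37 to 0.65). This rests on the uncorrected values, since after the GC correction described below the log2 ratios were -0.47 for *Bcl2l1* and -0.52 for *Bcl2l11*.

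Ratios to *Mcl1* within a library do not depend on how the libraries are scaled. *Mcl1* exceeded *Bcl2l1* 19.8-fold in shLuc ES cells and 45.6-fold in shKdm5b ES cells, and exceeded *Bmf* 24.2-fold and 97.0-fold. On the log2 scale the ratio to *Mcl1* was lower in shKdm5b ES cells by all 9 point estimates of the uncorrected reads. After the GC correction the log2 ratios of *Bak1* (0.49) and *Bid* (0.19) lay above that of *Mcl1* (0.17), and with the entries of each symbol summed that of *Bcl2* (0.076) lay above that of *Mcl1* (0.06). The interval of the uncorrected change was -2.12 to -1.89 for *Bmf* and -0.19 to -0.03 for *Bid*, the smallest change, and that of *Bcl2* included 0 (-1.03 to 0.53).

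*Mcl1* made up most of the RNA of the 10 members. The summed RPKM of the 10 genes was 292 in shLuc ES cells and 278 in shKdm5b ES cells, of which *Mcl1* took 72.5% and 79.4%. The 4 survival genes took 77.7% and 82.1%, *Bak1* took 8.63% and 7.80%, and the 5 BH3-only genes took 13.7% and 10.1%. Among these 10 genes, *Bak1* was the only effector gene. The RPKM of *Bak1* and the 5 BH3-only genes together was 0.288 of that of the 4 survival genes in shLuc ES cells. In shKdm5b ES cells it was 0.217, a log2 difference of -0.40. Without *Mcl1* the direction turned, with ratios of 4.35 and 6.41 (log2 difference 0.56), and the RPKM of *Bcl2l1* and *Bcl2l2* was 45.2% and 66.9% of the control. In these 9 genes the share of *Bmf* was 10.9% and 3.96%, and that of *Bak1* 31.4% and 37.8%. After the GC correction described next, the log2 difference with *Mcl1* included was -0.068. These sums leave out the 16 further family genes described below, among them *Bax* (RPKM 130 and 74.5), *Bok*, *Bbc3* and *Pmaip1*. Those 16 genes summed to 312 RPKM in shLuc ES cells and 346 RPKM in shKdm5b ES cells. RPKM sums weight abundant transcripts and say nothing of protein.

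**Figure D3:**
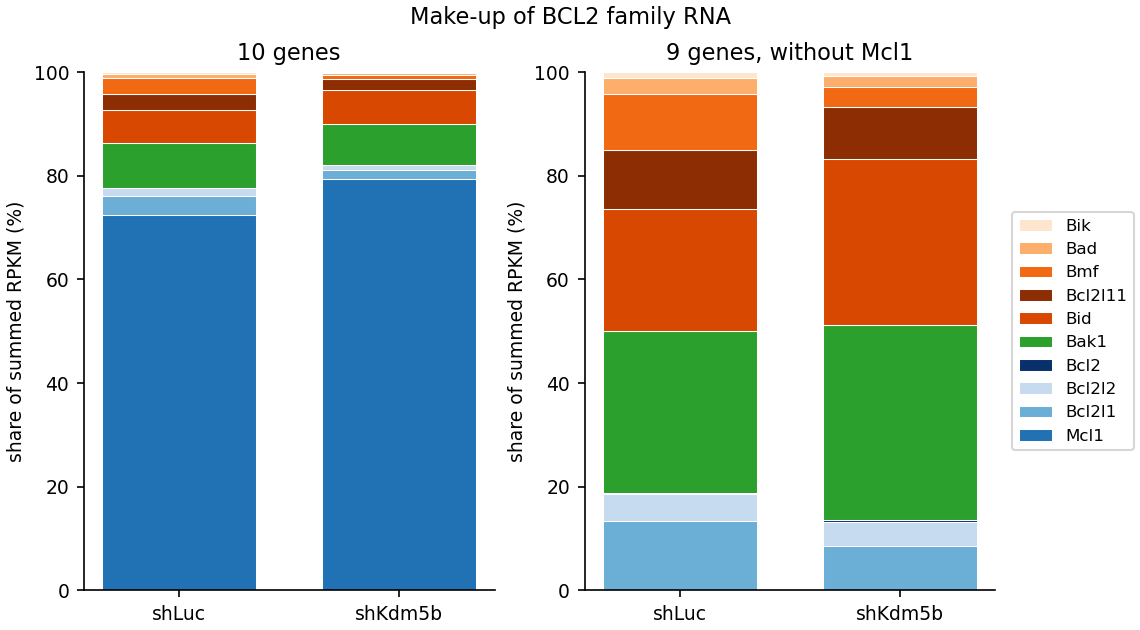
Share of the summed RPKM (percent, y axis) taken by each gene in the shLuc and shKdm5b libraries, for the 10 BCL2 family genes (left) and for 9 of them without *Mcl1* (right). *Mcl1* takes 72.5% and 79.4% on the left, and on the right the survival genes take 18.7% and 13.5%.

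Over 11535 genes with a known GC content the log2 ratio was lower for GC-rich transcripts, with a Spearman coefficient of -0.53 across these genes, which are no replicates of each other. The members ran from 44.4% GC (*Bcl2*) to 61.3% (*Bad*), with a median of 53.0% against 50.5% for all these genes. *Bad*, *Bak1*, *Bik* and *Bcl2l1* were the most GC-rich, at 61.3%, 57.1%, 56.9% and 56.4%. A lowess curve of the log2 ratio on GC content was removed as an alternative. It took *Bcl2l1* to -0.47, *Bad* to -0.17 and *Bcl2l11* to -0.52, all within 1.5-fold, and left *Bmf* at -1.42. *Bak1* turned to 0.49 and *Bid* to 0.19. By this correction 1 of 8 members was lower and 0 higher, where 17.8% of genes were lower, 19.0% higher and 36.8% differed in all. When transcript length was removed as well, *Bmf* had a log2 ratio of -1.20 and was again the member past the thresholds, where 15.9% of genes were lower, 15.6% higher and 31.6% differed in all. Whether GC content marks a property of the libraries or of the genes that differed was not tested.

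**Figure D4:**
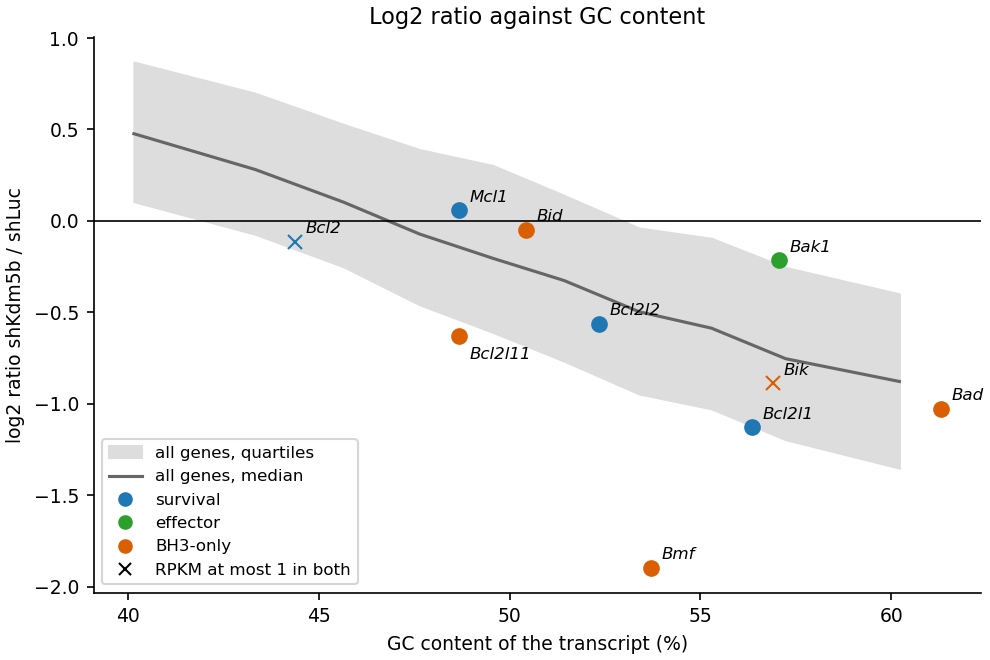
Log2 ratio of shKdm5b to shLuc (y axis) against the GC content of the transcript (x axis, percent) for the 10 BCL2 family members, over the median (line) and quartiles (band) of all genes with an RPKM above 1 in 10 bins of GC content. *Bmf* lies far below the band at 53.7% GC, while *Bcl2l1* lies at its lower edge and *Bak1* at its upper edge.

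The rest of the family was examined with a list of 16 further genes, of which 9 had an RPKM above 1. *Bnip3* (RPKM 70.4 and 135, log2 ratio 0.94), *Bnip3l* (41.9 and 75.7, log2 ratio 0.85) and *Pmaip1* (18.5 and 30.1, log2 ratio 0.70) were higher in shKdm5b ES cells past the thresholds. *Bnip3* and *Bnip3l* encode mitophagy receptors induced in hypoxia, and *Pmaip1* encodes NOXA, a BH3-only protein that binds MCL1. The RPKM of *Pmaip1* was 0.0871 of that of *Mcl1* in shLuc ES cells and 0.136 in shKdm5b ES cells, a log2 change of 0.65 (0.59 to 0.71), opposite in sign to that of all 5 BH3-only members. *Bok*, a BAX-like gene, was lower (RPKM 10.2 and 2.83, log2 ratio -1.81, -2.04 to -1.66), as were *Bax* and *Bcl2l13*, a mitochondrial family member. *Bax*, the other main effector, had an RPKM of 130 in shLuc ES cells and 74.5 in shKdm5b ES cells (log2 ratio -0.80), and exceeded *Bak1* 5.15-fold and 3.43-fold. *Bbc3*, which encodes the p53 target PUMA, stayed within 1.5-fold at an RPKM of 20.4 and 14.0 (log2 ratio -0.54), as did *Bcl2l12* (-0.44) and *Bcl2l14* (-0.41). After TMM scaling, which moves ratios up by 0.22 and less at low RPKM, 3 genes of the list were higher and 1, *Bok*, was lower. After the GC correction 0 were higher and 2, *Bok* and *Bcl2l13*, were lower, and the ratio of *Bax* was 0.02.

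The survival genes of the *Bcl2a1* group, which are known from blood cells, were at or near 0. *Bcl2a1a*, *Bcl2a1b* and *Bcl2a1c* had 0 reads in both libraries, where 3 reads would be at most 0.0864 RPKM in shLuc ES cells and 0.0929 RPKM in shKdm5b ES cells, and *Bcl2a1d* had 2 and 0 reads. These copies are nearly identical, and reads that match several of them may not have been counted. *Hrk* (204 and 129 reads), *Bcl2l10* (31 and 29 reads) and *Bcl2l15* (13 and 22 reads) had an RPKM below 1 in both libraries.

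Genes that act before and after the BCL2 family were taken from 5 lists with 51 genes, 45 of them with an RPKM above 1. Of the 45, 8 (17.8%) were higher and 16 (35.6%) lower past the thresholds, close to the 16.3% and 32.0% of all genes, and their median log2 ratio was -0.22. Scaling the libraries by their median ratio gave 11 higher and 9 lower.

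Downstream of the mitochondria, 7 of 13 genes were lower and 2 higher, where 32.0% and 16.3% of all genes were. Median scaling gave 4 lower and 2 higher, where 25.3% and 22.1% of all genes were, and TMM scaling also gave 4 and 2. *Htra2*, which encodes a mitochondrial protease that blocks IAP proteins once released, had an RPKM of 10.9 and 2.12 (log2 ratio -2.30, -2.55 to -2.17), a larger difference than that of *Bmf*, and 0.949% of the genes compared had a lower ratio. *Endog* (log2 ratio -1.20) and *Dffa* (-1.02), whose products take part in DNA fragmentation, and *Casp9* (-0.81), the initiator caspase of this pathway, were lower too. *Casp6*, which encodes an executioner caspase, was higher, with an RPKM of 4.66 and 11.2 (log2 ratio 1.25), as was *Cycs*, which encodes cytochrome c and whose reads may be shared with pseudogenes (0.84). *Apaf1*, the caspase 9 scaffold, stayed level at 0.08. After the GC correction 2 of the 13 genes were lower and 1 higher, where 17.8% and 19.0% of all genes were. *Htra2* (-1.61) and *Casp6* (1.16) were still past the thresholds, and *Endog* (-0.21), *Dffa* (-0.56), *Casp9* (-0.35) and *Cycs* (0.41) were not.

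Among the IAP genes, inhibitors of caspases, *Birc6* was lower (log2 ratio -0.90), and *Xiap* (-0.07), *Birc2* (0.03), *Birc3* (-0.18) and *Birc5* (0.43) were within 1.5-fold. In the death receptor list *Tnfrsf10b*, the mouse TRAIL receptor, was higher, with an RPKM of 6.66 and 14.2 (log2 ratio 1.08), and the adaptor genes *Tradd* (-0.79) and *Fadd* (-0.59) were lower. *Casp8*, which cleaves BID, had an RPKM of 0.610 and 0.884, below 1 in both libraries. Of the genes of the outer membrane and of mitochondrial dynamics, the fusion genes *Mfn2* (-1.23) and *Mfn1* (-0.84) were lower and the fission gene *Dnm1l* (0.66, and 0.24 after the GC correction) was higher, while the fusion gene *Opa1* had a log2 ratio of -0.05. *Vdac2*, whose channel holds BAK, lay just short of the threshold with an RPKM of 94.1 and 141 (log2 ratio 0.58). After the GC correction *Vdac2* (0.75) and *Birc5* (0.74) were higher and *Xiap* (-0.60) lower, while *Tradd* (-0.09) and *Fadd* (-0.30) were within 1.5-fold. *Tnfrsf10b* (1.20), *Birc6* (-0.97), *Mfn1* (-0.95) and *Mfn2* (-0.78) were still past the thresholds.

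Regulators of single members differed in both directions, 4 higher and 4 lower of 14, where 16.3% and 32.0% of all genes were. Under median and TMM scaling 4 were higher and 1 lower, with *Huwe1*, *Usp9x* and *Trp53* within 1.5-fold. For MCL1, both the ubiquitin ligase gene *Huwe1* (RPKM 31.0 and 18.6) and the deubiquitinase gene *Usp9x* (33.4 and 19.9) had a log2 ratio of -0.74. For BAD, the kinase gene *Akt1* was lower (log2 ratio -1.19), while *Ywhae*, which encodes a protein of the 14-3-3 family that holds phosphorylated BAD, was higher (0.78). *Dynll1*, which encodes the dynein light chain that binds BIM, was higher (0.94), and *Dynll2*, that of BMF, had a log2 ratio of -0.57, short of the threshold. *Mapk8*, which encodes the kinase JNK1 that phosphorylates BIM and BMF, was higher (1.15), as was *Ddit3*, a stress-induced transcription factor gene (1.13). *Foxo3*, a transcription factor gene of the *Bcl2l11* promoter, had a log2 ratio of 0.16 and *Trp53*, which encodes p53, of -0.60. After the GC correction 4 of the 14 genes were higher and 2 lower, where 19.0% and 17.8% of all genes were. *Akt1* (-0.35), *Ywhae* (0.53) and *Trp53* (-0.08) were then within 1.5-fold, and *Foxo3* (1.04) was higher. *Ddit3* (1.73), *Mapk8* (0.68) and *Dynll1* were still higher, and *Huwe1* (-0.67) and *Usp9x* (-1.22) still lower.

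**Figure D5:**
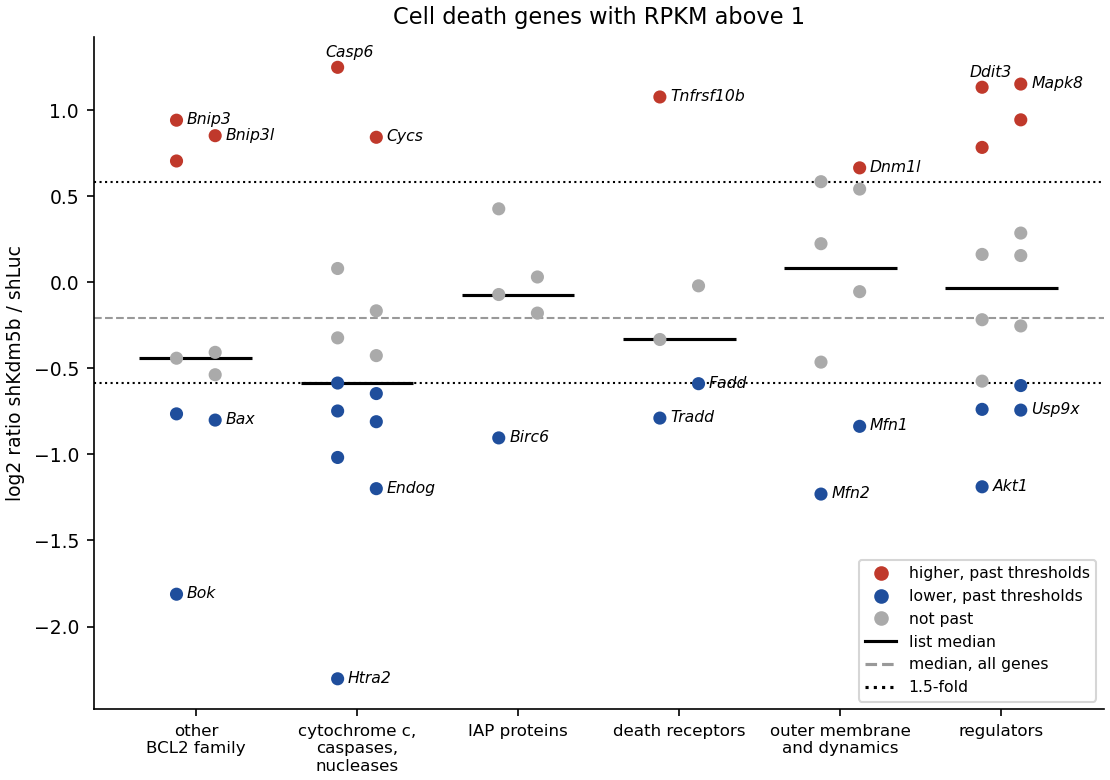
Log2 ratio of shKdm5b to shLuc (y axis) for genes with an RPKM above 1 in 6 lists of cell death genes, coloured by whether they pass the fold change and RPKM thresholds, with the median of each list as a bar and that of all genes as a dashed line. *Htra2* and *Bok* lie lowest, at -2.30 and -1.81, and *Casp6* highest, at 1.25.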

How the data were processed

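RNA-Seq of polyadenylated RNA from 1 shLuc and 1 shKdm5b ES cell culture was analysed. The submitters' processing notes name CASAVA 1.0, Bowtie 0.12.7 and the genome build mm8. The counting program is not given in the sources used here. For 27405 RefSeq entries the authors deposited a read count, the entry length and an RPKM value, and the aligned reads of 50 bases. Count, length and RPKM gave the number of aligned reads as the library size. Positions, GC content and overlaps came from GENCODE M21 and RefSeq for GRCm38 by accession and describe the genes, not the alignment, and no coordinates were converted.

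Of several entries per symbol, the most abundant by mean RPKM was used. Log2 ratios used a pseudocount of 0.1. Intervals at 95% are exact Clopper-Pearson for the split of a gene's reads between the libraries, exact Poisson for levels and exact conditional for odds ratios (SciPy 1.17.1). They cover counting error only, since the reads carry no molecular identifiers. At these depths 3 reads on 1 kb are 0.0384 RPKM (shLuc) and 0.0413 RPKM (shKdm5b).

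The study names edgeR with an FDR below 0.001, which needs an assumed dispersion here. Its exact test (edgeR 4.0.16) at dispersions of 0, 0.04 and 0.16 was run as an alternative, and it compares the pair of libraries only. Other alternatives were pseudocounts of 1 and 0.01, 3 scalings, summed entries, other thresholds, and lowess corrections (fraction 0.3, statsmodels 0.14.6) for GC content and for GC content with length. The steps were tested on simulated data. All members, *Kdm5b*, the further family genes and, from each other list, the genes past the thresholds were named, with genes a counted group needed, and 1 listed gene is not reported here. The members and lists were chosen with earlier results of these data known.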

Additional observations from a re-analysis of the deposited data

How the results depend on the processing

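No paired analysis was possible because there is a single library per condition, and no result could be recomputed without a replicate. The number of members past the thresholds, 4, was 3 to 5 under the other pseudocounts, the 3 scalings, summed entries, an RPKM minimum of 1 in each library or of 0, a fold change above 2 and the exact test at dispersion 0. It was 1 with the GC correction and 1 with the correction for GC and length, 0 with RPKM above 11, which *Mcl1*, *Bak1* and *Bid* alone reached, so that the 4 could not be counted, and 0 at dispersions of 0.04 and 0.16, at which 2.30% and 0.00847% of all genes passed. Their median log2 ratio, -0.60, was -0.43 after median scaling, -0.38 after TMM scaling, -0.18 corrected for GC and -0.16 corrected for GC and length.

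The further family genes past the thresholds, 6, numbered 2 when corrected for GC, 2 when corrected for GC and length (1 higher and 1 lower), 1 at a fold change above 2, and 0 at dispersions of 0.04 and 0.16. The pathway genes, 24, numbered 12 when corrected for GC and length (7 higher and 5 lower), 9 at a fold change above 2 (4 higher and 5 lower), and 1 and 0 at dispersions of 0.04 and 0.16. The split was 10 higher and 12 lower after 75th percentile scaling, 11 and 8 after TMM scaling, 8 and 8 after the GC correction, and 8 and 9 with RPKM above 11.

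The survival share was 4.48 percentage points higher in shKdm5b ES cells. The difference was 5.71 with summed entries, 0.76 when corrected for GC, 1.83 when corrected for GC and length and 5.29 on reads, and it reversed to -5.20 without *Mcl1*. The log2 difference of the ratio of death to survival genes, -0.40, was -0.45, -0.068, -0.17 and -0.58 in that order, and 0.56 without *Mcl1*. *Kdm5b* had a log2 ratio of -4.72 at a pseudocount of 1, -4.90, -5.01 and -4.85 after median, 75th percentile and TMM scaling, and -4.85 when corrected for GC and length. *Bmf*, *Bcl2l1*, *Bcl2l11*, *Bcl2l2*, *Bad* and *Bik* kept a ratio below 0 under all 8 alternatives for single genes, *Bmf* between -1.94 and -1.20. *Bcl2*, *Bak1* and *Bid* changed sign in some. The causes were not tested.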
